A study of Mus musculus with 8 samples.

Results

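The Akap7 and Epb41l2 window is the 1 Mb of mouse chromosome 10 from 25000001 to 26000000 (mm10), and its members were the loops whose midpoint lay inside it. It was selected on its loop numbers, because the HNF4G loop list of liver mets held more loops here than the HNF4G list of the primary tumor. The HNF4G tumor list held 14 of its 76323 loops in the window, the HNF4G liver mets list 39 of 78098, the FOXA1 tumor list 39 of 104136 and the FOXA1 liver mets list 55 of 125623. These were 101 distinct loops of 249200 in the 4 lists combined. Akap7, Epb41l2 and Smlr1 lie wholly inside the window, and Tmem200a starts just beyond its upper edge and reaches back into it.

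The data came from Hi-ChIP, which joins proximity ligation of chromatin with immunoprecipitation, so that a loop is a pair of anchors brought together in chromatin carrying the chosen protein. The 8 samples were 2 replicates each of HNF4G and FOXA1 Hi-ChIP in cells of the KPC model, 1 line from the primary tumor and 1 from liver mets, all untreated and labeled wild type. KPC is a genetically engineered mouse model of pancreatic cancer, and each condition was represented by 1 line, so a difference between conditions and a difference between lines cannot be told apart. The replicates of each group were deposited as 1 loop list, so no spread between replicates and no test between groups could be calculated, and sequencing depth is unknown. Intervals below are exact 95% binomial (Clopper-Pearson) intervals, cover counting error only and take no account of anchors that several loops share.

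HNF4G is a nuclear receptor of the HNF4 family, which is known for driving gene programs of gut, liver and pancreas epithelium. FOXA1 is a forkhead factor that can open compact chromatin and often occupies the same enhancers. Epb41l2 encodes a protein 4.1 family member that links membrane proteins to the spectrin and actin skeleton. Akap7 encodes an A-kinase anchoring protein, which tethers protein kinase A near its substrates. Tmem200a encodes a transmembrane protein and Smlr1 a small leucine-rich protein, both less well described.

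The sequences below locate the gene starts that the results turn on. They are the 250 bases before a start that lies in an anchor, at Epb41l2, Akap7 and Tmem200a in GRCm38, the assembly that mm10 names, written in the direction of transcription with CpG dinucleotides in capitals. The Epb41l2 stretch was read from the genome, and the others came from the RefSeq promoter table.

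Epb41l2, chr10:25359548-25359797, plus strand: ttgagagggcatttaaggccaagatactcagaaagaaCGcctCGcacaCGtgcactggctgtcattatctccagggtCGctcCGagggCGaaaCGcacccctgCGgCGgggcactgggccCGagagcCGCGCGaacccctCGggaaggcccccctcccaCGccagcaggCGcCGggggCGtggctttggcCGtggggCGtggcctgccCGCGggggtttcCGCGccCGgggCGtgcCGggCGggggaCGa

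Akap7, chr10:25297080-25297329, minus strand: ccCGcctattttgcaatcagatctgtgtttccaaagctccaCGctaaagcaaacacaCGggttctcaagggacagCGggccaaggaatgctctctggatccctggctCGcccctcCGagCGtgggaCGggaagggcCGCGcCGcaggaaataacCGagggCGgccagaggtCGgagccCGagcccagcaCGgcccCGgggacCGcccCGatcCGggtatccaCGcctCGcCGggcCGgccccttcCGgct

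Tmem200a, chr10:26078964-26079213, minus strand: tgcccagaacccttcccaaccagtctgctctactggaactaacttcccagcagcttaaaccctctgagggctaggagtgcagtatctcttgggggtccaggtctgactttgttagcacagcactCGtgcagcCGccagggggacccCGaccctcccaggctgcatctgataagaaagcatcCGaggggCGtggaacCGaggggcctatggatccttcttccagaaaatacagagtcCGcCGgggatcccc

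The Epb41l2 stretch held 29 CpGs and the Akap7 stretch 25, against a median of 6 over 32851 RefSeq promoters, of which 10.7% held 25 or more. The Tmem200a stretch held 8. The other RefSeq starts of Akap7 and Tmem200a held fewer, with 10 at an Akap7 start away from any anchor and 3 at the farther Tmem200a start. The Epb41l2 and Akap7 stretches lay wholly inside loop anchors, and that of Tmem200a overlapped its anchor by 4 bases at the end next to the start.

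Most of the higher HNF4G count came from a run of 12 anchors that starts inside Akap7 and ends inside Epb41l2. This run covered 219.2 kb, chr10:25270573-25489735, with 3 anchors in Akap7, 8 in Epb41l2 and 1 between them. It stood alone in the anchor map, since no anchor lay in the 150.1 kb before it or the 201.2 kb after it. Loops with both anchors in the run numbered 11 in HNF4G tumor, 26 in HNF4G liver mets, 27 in FOXA1 tumor and 24 in FOXA1 liver mets. They made up 15 of the 25 loops by which the HNF4G lists differed in the window. Loops with 1 anchor in the run numbered 0, 6, 6 and 14 in the same order of lists, and loops with none numbered 3, 7, 6 and 17.

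**Figure D1:**
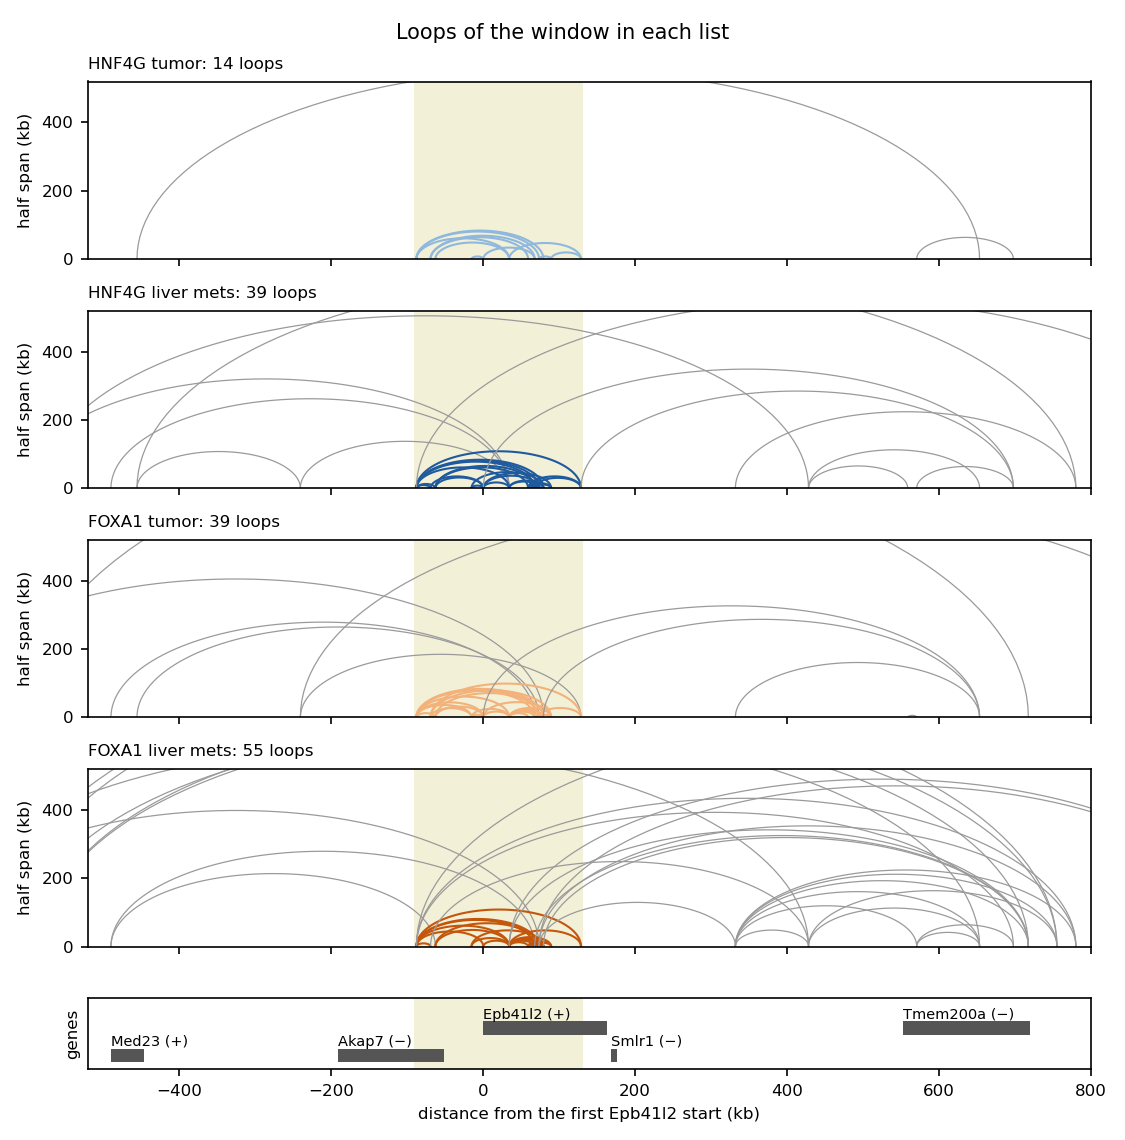
Loops of the window in each list, drawn as arcs between anchor midpoints against the distance from the first Epb41l2 start in kb, the height being the span in kb divided by 2. Colored arcs have both anchors in the shaded run of 12 anchors, gray arcs do not, arcs reaching past the panel are clipped, and the bars below are genes. The HNF4G tumor panel holds 11 colored arcs and the other panels 26, 27 and 24.

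In the whole window HNF4G loops were 2.79 times as many in liver mets as in tumor, or 2.72 times as a ratio of list shares. This ratio chose the window and is given as a description. Of 821 windows of 1 Mb with at least 40 HNF4G loops in both lists together, 0.731% held at least 2 times as many loops in liver mets. The FOXA1 ratio, which the choice did not use, was 1.41 (0.919 to 2.18), or 1.17 as a ratio of shares. Its interval includes 1. Among 1035 windows of 1 Mb with at least 40 FOXA1 loops in both lists together, 19.4% had a FOXA1 ratio at least as high.

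The HNF4G counts that chose the window can be set beside FOXA1 and beside other anchor pairs, as a description. HNF4G loops were 0.359 times as many as FOXA1 loops in the tumor lists of this window and 0.733 times as many over the whole tumor lists. In liver mets these ratios were 0.709 and 0.622. The 12 anchors of the run make 66 pairs, and the share of all anchor pairs of the same spans that each list held gives a yardstick for them. At that share the HNF4G tumor list would hold 18.7 of the 66 pairs and it held 11, while the HNF4G liver mets list would hold 20.4 and held 26. The FOXA1 lists held 27 against 24.7 in tumor and 24 against 27.5 in liver mets. The HNF4G counts stood on opposite sides of their yardsticks, which the choice of the window favors, so they are a description.

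**Figure D2:**
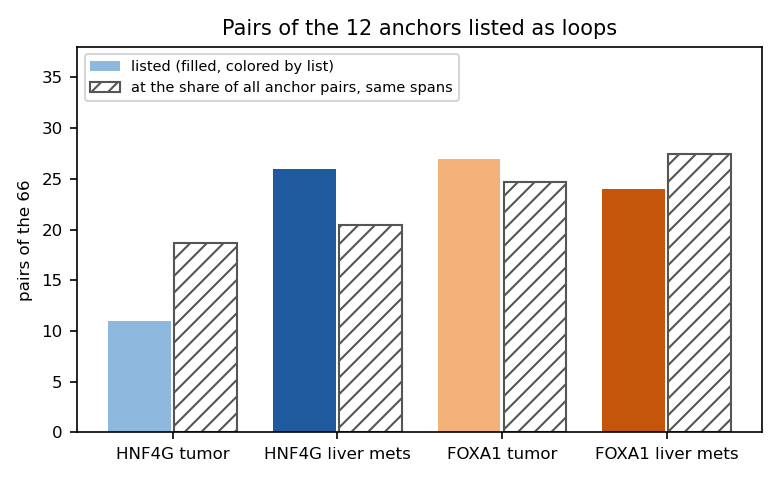
Number of the 66 pairs of the 12 anchors listed as loops (filled bars) and the number at the share of all anchor pairs of the same spans in that list (hatched bars), for each list. The HNF4G tumor bar is at 11 against 18.7 and the HNF4G liver mets bar at 26 against 20.4.

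The HNF4G difference touched both Epb41l2 and Akap7. All 8 anchors inside Epb41l2 had more HNF4G loops in liver mets than in tumor, 2 of the 3 inside Akap7 did, and the remaining Akap7 anchor was equal. Across all anchors with HNF4G loops 45.8% were higher and 38.6% lower in liver mets, and since the window was chosen on this contrast nothing is read from the count. The mean difference per anchor was 3.25 loops in Epb41l2 and 3.0 in Akap7. Window loops joining 2 anchors of Epb41l2 numbered 3 in HNF4G tumor and 10 in HNF4G liver mets, and those joining Akap7 with Epb41l2 numbered 6 and 7. Loops from Epb41l2 to anchors outside both genes numbered 1 and 8, those from Akap7 to such anchors 0 and 3, and those within Akap7 0 and 2. The FOXA1 lists held 10 and 13 loops within Epb41l2 in tumor and liver mets, 7 and 6 between the genes, 8 and 12 from Epb41l2 to elsewhere, 4 and 6 from Akap7 to elsewhere and 2 and 1 within Akap7.

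**Figure D3:**
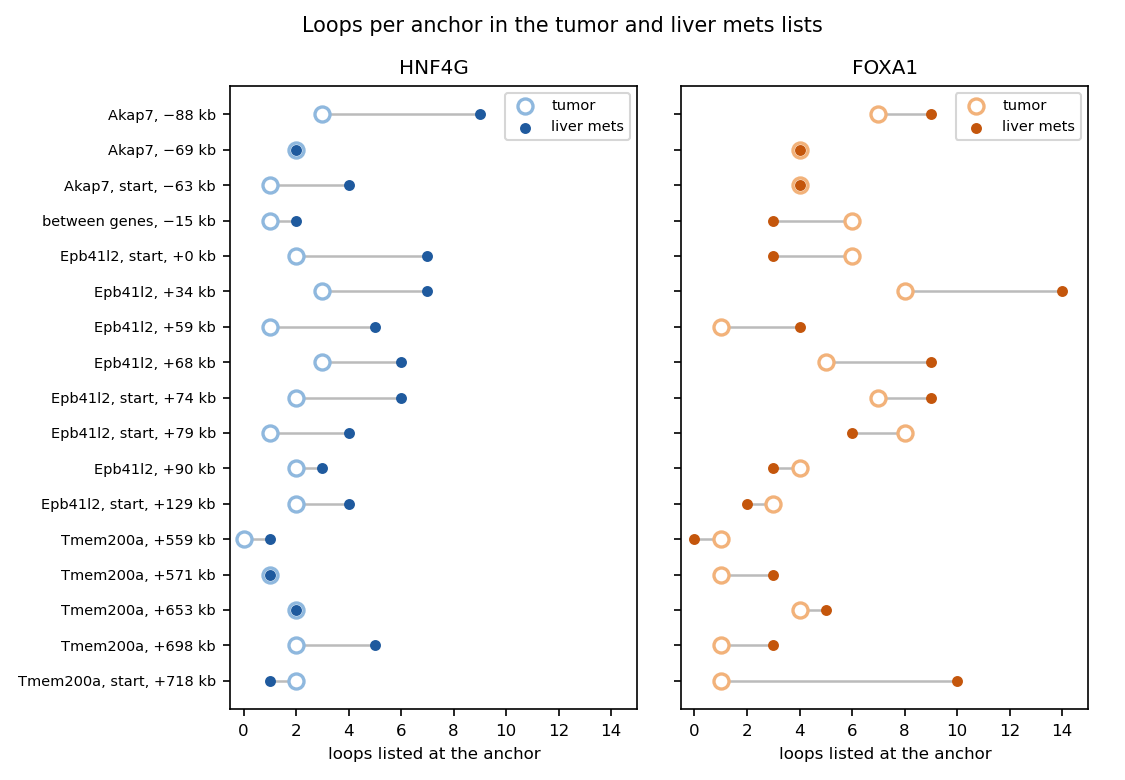
Loops listed at each of the 12 anchors of the run and the 5 anchors in Tmem200a, with open circles for tumor and filled points for liver mets, HNF4G on the left and FOXA1 on the right. Anchors are labeled by gene, by whether a start lies within 2 kb and by distance from the first Epb41l2 start. In HNF4G 11 of the 12 anchors of the run are higher in liver mets and 1 is equal.

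The anchor with the widest HNF4G difference lay inside Akap7, at chr10:25270573-25273490, over an exon and intron and away from any Akap7 start. It held 3 loops in HNF4G tumor, 9 in HNF4G liver mets, 7 in FOXA1 tumor and 9 in FOXA1 liver mets. All 3 of its HNF4G tumor loops were among the 9 of liver mets. Of those 9, 7 were in a FOXA1 list, and 5 were in each of them. Its farthest partner in the run, the anchor at chr10:25487552-25489735 near an Epb41l2 start 216.6 kb away, gave the HNF4G loop with the highest value of the window, 3.23 in liver mets. In FOXA1 liver mets its value was 1.47, and it was in neither tumor list.

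The second anchor by HNF4G difference was that of the first Epb41l2 start, chr10:25358928-25361219. It held 2 loops in HNF4G tumor and 7 in HNF4G liver mets, while FOXA1 went the other way, with 6 in tumor and 3 in liver mets. The 7 HNF4G liver mets partners were the Akap7 anchor at 25289371, the Akap7 start anchor, the anchor between the genes, 3 anchors inside Epb41l2 and 1 inside Tmem200a 697.6 kb away. Of them 1 was also an HNF4G tumor partner, 4 were FOXA1 tumor partners and 1 was a FOXA1 liver mets partner. The loop from this start to the Akap7 start, 63.1 kb long, was thus in the HNF4G liver mets and FOXA1 tumor lists, with values of 0.146 and 0.123. The HNF4G values at this anchor ran from 0.145 to 1.99 in liver mets, so none reached 2. Apart from 1 loop at 1.05 and 1 at 1.99 they were all 0.145 or 0.146, close to the lowest HNF4G liver mets value of the window, 0.140. The 2 HNF4G tumor loops had 0.168 and 0.171. The 2 commonest values of the HNF4G liver mets list were 0.146 and 1.99, and 0.123 was the lower of those of FOXA1 tumor. The higher count at this anchor thus rests mostly on loops of the lowest values.

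Loops at gene starts were counted for anchors within 2 kb of a start. The Akap7 start anchor, chr10:25295614-25298408, held 1 HNF4G loop in tumor and 4 in liver mets, and 4 FOXA1 loops in each list. The 4 anchors at Epb41l2 starts together held 7 and 19 HNF4G loops and 22 and 19 FOXA1 loops. Epb41l2 has starts in many places along the gene, and the FOXA1 direction there turned with the distance allowed: within 5 kb of an anchor the FOXA1 loops were 29 in tumor and 35 in liver mets, and the HNF4G loops 11 and 27. The Smlr1 starts had no anchor, the nearest being 46.4 kb away, so no loop could be given to Smlr1.

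Other anchors of the run differed less or were shared with FOXA1. The Epb41l2 intron anchor at chr10:25391874-25396409 held 3 and 7 HNF4G loops in tumor and liver mets and 8 and 14 FOXA1 loops. It was the FOXA1 hub of the run in liver mets, and all 8 of its FOXA1 tumor loops were listed again there. The anchor of an internal Epb41l2 start, chr10:25431217-25435698, held 2 and 6 HNF4G loops and 7 and 9 FOXA1 loops. The remaining HNF4G counts in tumor and liver mets were 1 and 5 at 25417739, 3 and 6 at 25426209, 1 and 4 at 25438086, 2 and 3 at 25448523, 2 and 4 at 25487552, 1 and 2 at 25343408 and 2 and 2 at 25289371. At least 4 more HNF4G loops in liver mets were found at 5 of the 12 anchors of the run and at 9.67% of all anchors with HNF4G loops, a description again. In FOXA1 5 anchors were higher, 5 lower and 2 equal in liver mets, against 58.9% higher and 27.9% lower of all anchors with FOXA1 loops. With 12 anchors that share loops, no difference from that background is drawn.

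**Figure D4:**
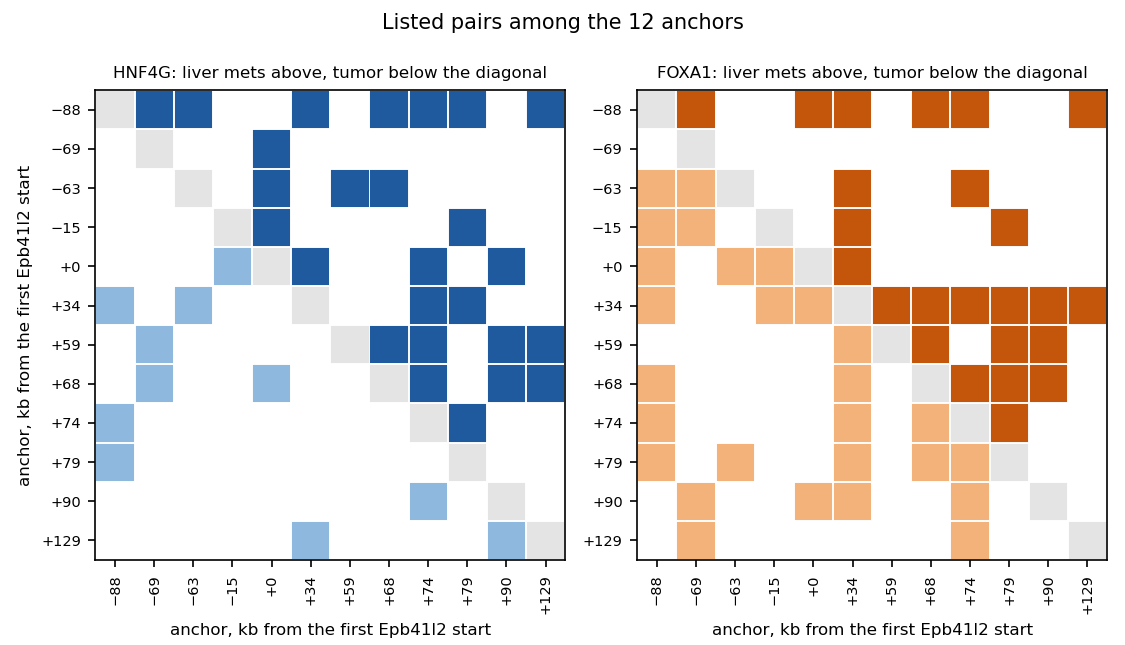
Listed pairs among the 12 anchors of the run, ordered by distance from the first Epb41l2 start in kb, with liver mets above and tumor below the diagonal of each panel, HNF4G on the left and FOXA1 on the right. A filled cell is a listed loop, and the HNF4G tumor triangle holds 11 cells, the HNF4G liver mets triangle 26, the FOXA1 tumor triangle 27 and the FOXA1 liver mets triangle 24.

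At the start of Tmem200a the loops that differed were those of FOXA1. Its start anchor, chr10:26075845-26078967, which also holds the start of Gm9767, held 2 HNF4G loops in tumor and 1 in liver mets but 1 FOXA1 loop in tumor and 10 in liver mets. At least 9 more FOXA1 loops in liver mets were found at 1 of the 38 anchors used by the window's loops and at 3.42% of all anchors with FOXA1 loops. That cut was set at this anchor's own difference, so nothing is read from these shares. The 10 FOXA1 loops ran to anchors between 19.7 and 1299 kb away, 3 of them to anchors inside Epb41l2, and their values ran from 0.0882 to 1.87. Of the 5 anchors in Tmem200a, 4 had more FOXA1 loops in liver mets and 1 fewer, and in HNF4G 2 had more, 1 fewer and 2 equal. With anchors up to 5 kb from a Tmem200a start the HNF4G loops were 3 in each list, and the FOXA1 loops 5 in tumor and 14 in liver mets. Of the loops at the start anchor, those with their midpoint in the window numbered 0 in each HNF4G list. In FOXA1 they numbered 1 in tumor and 5 in liver mets, so not all 10 were loops of the window. The widest HNF4G difference among the 5 anchors in Tmem200a was at chr10:26056960-26058422 in an intron, with 2 loops in tumor and 5 in liver mets. With 2 of its liver mets loops it reached the run, at the first Epb41l2 start and at 25487552.

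Other genes also had a start within 2 kb of an anchor of these loops. Ccn2, which encodes a secreted matrix protein, held 12 HNF4G loops in each list and 15 FOXA1 loops in tumor and 21 in liver mets. Enpp1, an ectoenzyme gene of nucleotide metabolism, held 4 and 5 HNF4G loops in tumor and liver mets and 6 and 10 FOXA1 loops. Med23, a Mediator subunit gene, held 4 and 2 HNF4G loops, with 5 FOXA1 loops in each list. L3mbtl3, which encodes a reader of methylated lysine, held 3 and 1, with 5 and 4 FOXA1 loops. Among the noncoding or predicted genes, Gm15271 held 7 HNF4G loops in each list and 11 and 15 FOXA1 loops, while Gm15270 shared the anchor of Ccn2, Gm40617 that of the Akap7 start and Gm47830 the Epb41l2 intron anchor at 25417739. The 2 coding genes with more than 10 HNF4G loops in a list were thus Ccn2, with equal counts, and Epb41l2. The Epb41l2 counts were taken over 4 anchors and those of Ccn2 over 1, so they are not like measures. Counted over all 38 anchors that the window's loops used, 22 were higher in HNF4G liver mets, 7 lower and 9 equal, and in FOXA1 24 were higher, 10 lower and 4 equal.

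Both short and long loops added to the HNF4G difference. Under 100 kb there were 6 HNF4G loops in tumor and 19 in liver mets, from 100 to 1000 kb 6 and 17, and at 1000 kb or more 2 and 3. FOXA1 loops under 100 kb numbered 21 in each list, and the FOXA1 difference lay in the longer ones, with 14 and 26 from 100 to 1000 kb and 4 and 8 beyond. The ratios for these longer ranges were 1.86 (0.935 to 3.85) and 2.0 (0.536 to 9.08), and both intervals include 1. Over the whole FOXA1 lists the ratio of liver mets to tumor also rose with span. It was 1.10 under 100 kb, 1.26 from 100 to 1000 kb and 1.43 beyond. The shortest spans were 15.5 kb in HNF4G tumor and 5.75 kb in HNF4G liver mets. The median span was 124.7 kb in HNF4G tumor, 122.0 kb in HNF4G liver mets, 88.0 kb in FOXA1 tumor and 225.1 kb in FOXA1 liver mets, against list medians of 131.4, 114.3, 140.6 and 163.7 kb. The FOXA1 median was thus below its list in tumor and above it in liver mets, while the HNF4G medians were close to each other.

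Most loops had values under 2, in the window as in the whole lists. The value was deposited without a name and was read as the negative log10 of an adjusted p, capped at 20. No HNF4G tumor loop of the window and 1 HNF4G liver mets loop reached 2, against 7.32% and 7.21% of their lists. In the FOXA1 lists 3 and 6 did, against 7.84% and 9.33%. Values below 1 were found for 5 of 14 HNF4G tumor loops and 16 of 39 HNF4G liver mets loops, against 37.3% and 38.4% of their lists. Another 9 and 22 lay from 1 to 2, against 55.35% and 54.35% of the lists.

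**Figure D5:**
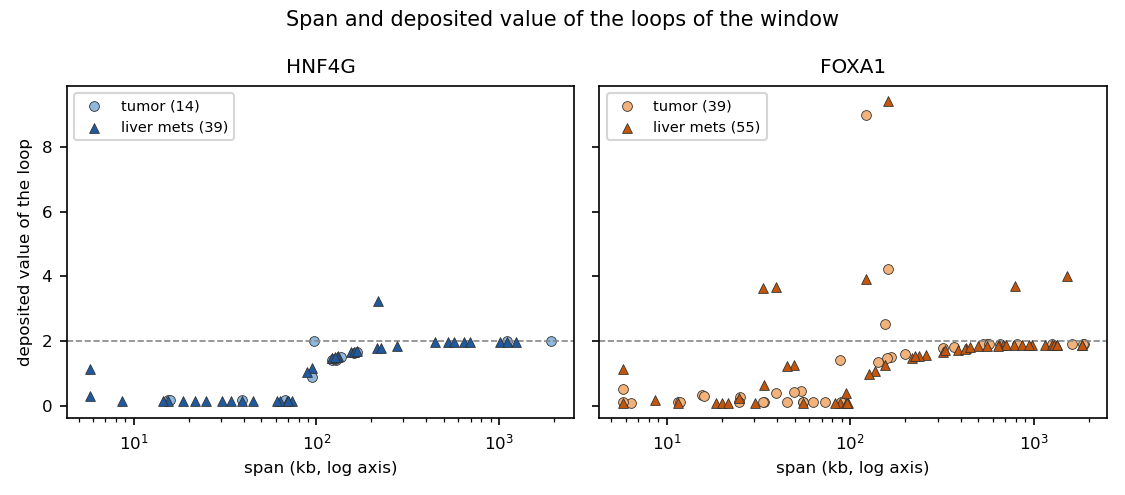
Span in kb on a log axis and deposited value of each loop of the window, with circles for tumor and triangles for liver mets, HNF4G on the left and FOXA1 on the right, and a dashed line at a value of 2. The HNF4G points lie below the line except 1 liver mets loop at 3.23, and the highest FOXA1 points are at 8.99 in tumor and 9.43 in liver mets.

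Few HNF4G liver mets loops of the window recurred in HNF4G tumor as identical anchor pairs. Of the 39, 5 (12.8%) were in the HNF4G tumor list, and 11 (28.2%) with anchors widened by 5 kb on each side. Of the whole HNF4G liver mets list 32.9% were in HNF4G tumor with identical anchors, so that 67.1% were missing from tumor (66.0% of the FOXA1 liver mets list were missing from FOXA1 tumor). Under 100 kb, where recurrence was commonest in the whole lists, 1 of 19 recurred against 50.3%. Because the window was chosen for few HNF4G tumor loops, these shares are a description. From the other side, 5 of the 14 HNF4G tumor loops (35.7%) were in liver mets, against 33.6% of the HNF4G tumor list.

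Sharing with FOXA1 was near that of the list. The choice of the window did not use the FOXA1 lists, but it did use the number of the 39 loops asked about. In FOXA1 liver mets 17 of the 39 were found (43.6%, 27.8 to 60.4, list 44.8%), in FOXA1 tumor 13 (33.3%, 19.1 to 50.2, list 40.4%) and in either 22 (56.4%, 39.6 to 72.2, list 57.9%). Of the 34 loops missing from HNF4G tumor, 17 were in a FOXA1 list, as were 45.9% of all such loops. Of these 17, 6 were in both FOXA1 lists, 8 in liver mets alone and 3 in tumor alone.

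Only 2 loops of the window were in all 4 lists, and both started from the Akap7 anchor at 25270573. The loop to the Epb41l2 intron anchor at 25391874, 122.1 kb long, had values of 1.42 in HNF4G tumor, 1.48 in HNF4G liver mets, 8.99 in FOXA1 tumor and 3.93 in FOXA1 liver mets. The loop to the internal Epb41l2 start anchor at 25431217, 161.4 kb long, had values of 1.65, 1.67, 4.25 and 9.43 in the same order. The first held the highest FOXA1 tumor value of the window and the second the highest FOXA1 liver mets value. Their HNF4G values were nearly alike in tumor and liver mets, but so were those of other HNF4G loops of such spans. The loop from 25270573 to 25438086, 167.2 kb long, had 1.67 and 1.68, and that from 25927805 to 26056960, 127.3 kb long, 1.44 and 1.51. HNF4G values went largely with span, so nothing is read from this likeness. Of the 101 loops, 68 were in 1 list.

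Loops near the edges were few. The HNF4G liver mets loop with its midpoint at 25011792 was just inside the lower edge, and a FOXA1 liver mets loop with its midpoint at 24942283 just outside. At the upper edge a loop with its midpoint at 25994059, in HNF4G tumor, HNF4G liver mets and FOXA1 liver mets, was just inside, and an HNF4G liver mets loop at 26022338 just outside. The 1 Mb before the window held 57 HNF4G tumor and 46 HNF4G liver mets loops, and the 1 Mb after it 15 and 14, so neither neighbor shared the difference.

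Motif letters were searched in the reference sequence of the 12 anchors, on both strands, as a description of these windows. The HNF4-like letters CAAAGNNCA were in 6 of the 12, against a mean of 49.1% of anchors of like length, and occurred 7 times against 8.55 at the mean of such anchors. The forkhead letters TGTTTAC or TATTTAC were in 9 (58.5%) and occurred 19 times against 11.6, and the AP-1 letters TGANTCA, a palindrome counted once per position, were in 7 (65.6%) and occurred 12 times against 14.3. The CTCF core was in 1 anchor (5.05%), that of the first Epb41l2 start. Overlaps between matches of different motifs numbered 0. The counts lay near those of other anchors apart from more forkhead letters, 5 of them in the Akap7 start anchor. None of the 3 promoter stretches above held any of these letters, which occur in 5.49% (HNF4-like), 5.76% (forkhead), 6.75% (AP-1) and 1.17% (CTCF core) of all RefSeq promoter stretches of this length.

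The HNF4-like matches of the 2 anchors with the largest HNF4G differences and of the Akap7 start anchor, and the CTCF core match, are shown with 10 (HNF4-like) or 9 (CTCF) bases on each side, the match in capitals and written on the strand of the motif.

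Akap7 anchor, chr10:25272853-25272881, plus strand: tcccttgttaCAAAGTTCAactgtacttc

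Akap7 start anchor, chr10:25297831-25297859, plus strand: agaggatcctCAAAGGCCAgccgatgcta

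Epb41l2 first start anchor, chr10:25360867-25360895, minus strand: tcacatgcaaCAAAGTTCAagaaacagag

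Epb41l2 first start anchor, CTCF core, chr10:25359803-25359832, plus strand: gggcttccgCCAGGAGGGGGCggggcttgc

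The Akap7 anchor and the first Epb41l2 start anchor held the same 9 letters, on opposite strands of the chromosome. The Epb41l2 anchor at 25487552 also held them, on the plus strand. The 3 anchors that came next by HNF4G difference after the Akap7 anchor and the first Epb41l2 start anchor held no HNF4-like match. They were those at 25391874, 25417739 and 25431217. This order comes from the contrast that chose the window, and a link between the letters and the HNF4G counts was not tested.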

How the data were processed

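Hi-ChIP loop lists of 4 groups, each of 2 replicates, were analyzed. Per the labels and the study's methods, reads were mapped to mm10 (GRCm38) with HiC-Pro 3.1.0 at default settings with DpnII fragments, and loops were called with hichipper 0.7.9. Replicates were in 1 list per group, joined in a way not stated. The value of a loop, a score deposited by the authors without a name or unit, was read as a negative log10 of an adjusted p because it had long tied runs and ended at 20. The tied values were not the same in the 4 lists, so values of different lists are compared with caution. Paired reads per loop and depth were not analyzed here.

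Loops were assigned to the window by midpoint, and spans were taken between anchor midpoints. Anchors were common to the lists, and loops were shared when both anchors were identical. Loops of an anchor or gene start were counted wherever the partner lay. Genes came from GENCODE M21, with a start within 2 kb of an anchor, and sequences from RefSeq GRCm38.p6. Anchors of like length were within 10%. Pair yardsticks used all anchor pairs in 6 span ranges. Intervals came from scipy 1.17.1 (Python 3.11.15) at 95%. Scripts were tested on simulated lists. Groups were not tested against each other, each having 1 list.

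The members, lists and the run of 12 anchors were chosen with earlier results of these data known. The text names the 4 member genes, other genes with a start within 2 kb of an anchor of a window loop, the 2 anchors with the largest HNF4G rise and loops in all 4 lists. Anchors beyond these were named after their values were seen. Alternatives varied the window, value, span and anchor definitions.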

Additional observations from a re-analysis of the deposited data

Results flagged for a closer look

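At 9 of the 38 anchors used by the window's loops, HNF4G and FOXA1 loop counts moved in opposite directions between tumor and liver mets, as did 34.1% of all anchors, and with 1 list per group the difference was not tested. The HNF4G difference (liver mets minus tumor) less the FOXA1 difference was 8 loops at the first Epb41l2 start anchor, 5 at the Epb41l2 anchor at 25438086, 4 at the anchor between Akap7 and Epb41l2 at 25343408, 3 at 25487552 and 2 at 25448523, both inside Epb41l2. It was 2 at 25118173 and 2 at 25917543, the latter inside Tmem200a. At the Tmem200a start anchor it was -10 and at the Enpp1 anchor at 24633628 it was -5, where FOXA1 was higher and HNF4G lower in liver mets. At 25118173 and 25917543 no list held more than 2 loops.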

How the results depend on the processing

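The HNF4G ratio of liver mets to tumor was above 1 under all 12 alternatives that gave a value. It ran from 1.29 with the window moved down by 0.5 Mb to 3.17 among loops under 100 kb. The window was chosen on this ratio and the alternatives reuse many of its loops, so these values are a description and no support. The interval included 1 with the window moved down (0.858 to 1.95) and with it moved up (0.556 to 4.78). The FOXA1 ratio was 0.966 with both anchors inside the window and 0.889 among pairs of the 12 anchors (added after seeing the data), and so turned direction, and it was 2.91 with the window moved up by 0.5 Mb. At a minimum value of 2 the HNF4G counts were 1 and 0 and gave no ratio. At a minimum of 1.30 the HNF4G ratio was 2.22 (0.967 to 5.54). That minimum kept 9 tumor and 20 liver mets loops, nearly the same loops as the 8 and 20 of 100 kb or more. It is therefore not an alternative apart from span, and among loops of 100 kb or more the ratio was 2.5 (1.06 to 6.56).

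The share of HNF4G liver mets loops also in HNF4G tumor was 28.2% with anchors widened by 5 kb on each side, and 0% (0 of 39) with a minimum value of 2 in the list looked up, an upper interval bound of 9.03%. With that minimum in the list asked about it was 0% (0 of 1). With starts within 5 kb the FOXA1 difference at Epb41l2 was 6 loops higher in liver mets, where it was 3 lower within 2 kb. Of the other values, 48 stayed inside the limits set for a change and 12 on single genes or lists moved further. These 12 included the share also in FOXA1 tumor, 53.85% with widened anchors, while those in FOXA1 liver mets and in either list stayed inside. With a minimum value of 2 in the list looked up, all of these shares moved, to 7.69% in FOXA1 liver mets, 7.69% in FOXA1 tumor and 10.3% in either.

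No paired analysis was possible because each group had 1 list for both replicates, and for the same reason none was left out in turn. Depth per library is unknown, and loops below a list's calling minimum are not seen, so a loop missing from a list is not shown to be absent.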
